A study of Homo sapiens with 12 samples.

Results

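The response to a changed level of ZNF165 was compared between MKN28 and MKN45, which are established human gastric cancer lines, over all 12 of the 12 libraries of the study. In MKN28 the level was lowered: 3 libraries came from cells with a control lentivirus (LV-Control) and 3 from cells labelled as a ZNF165 knockdown by a lentiviral siRNA. In MKN45 it was raised: 3 libraries came from LV-Control cells and 3 from cells that carried LV-ZNF165 and were labelled as overexpressing the gene. The control genotype was given as WT in both lines. All 12 libraries came from cells that had received a lentivirus. Knockdown replicates 2 and 3 carried the names ZNF166 and ZNF167 in their descriptions, while their genotype label was the same as that of replicate 1, and the genotype label was followed. Separate cultures or clones are not named for the replicates, so the p-values rest on the scatter of these libraries, part of which may be technical.

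Each line's change was taken as the log2 ratio of higher over lower ZNF165, which is control over knockdown in MKN28 and overexpression over control in MKN45. The line difference is the MKN45 change minus the MKN28 change, and a gene was called where its Benjamini-Hochberg adjusted p was under 0.05 in edgeR's quasi-likelihood test of that contrast over 17266 genes. A gene that moved by the same amount with ZNF165 in both lines has a difference of 0. A gene that rose on knockdown and also rose on overexpression has a positive difference, and a gene that fell in both has a negative one. The design changes the line and the direction of the manipulation together, so the cell line, the agent and the sign of the change in ZNF165 cannot be told apart. Levels are given in CPM, counts brought to a common library total with TMM factors, which adjust for differences in composition between libraries. Errors are standard deviations over 3 libraries unless SE is stated.

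ZNF165 encodes a protein with a SCAN domain, through which such proteins pair, and a row of zinc fingers that bind DNA. It is made mainly in the testis in healthy adults and belongs to the cancer/testis antigens because tumours can switch it on. MKN28 is entered in public registers of misidentified cell lines as a derivative of MKN74, another gastric line. Epithelial keratins were abundant in all libraries: KRT8 had 23477 to 443431 counts and KRT18 had 18324 to 148721. Others of the 10 epithelial markers were lower or uneven. EPCAM had 8675 to 10763 counts in MKN28 controls, 12554, 1940 and 1815 after knockdown, and 10194 to 16718 in MKN45. MUC1 had 23 to 232 counts in MKN28 and 1989 to 3328 in MKN45, and CLDN4 had 34 to 89 in MKN28 controls. Of 14 immune markers, 6 had at most 3 counts in every library. The 14 together made up 9.89 to 38.7 CPM by unscaled totals in MKN28 without the siRNA and 34.4 to 41.4 with it, and 107 to 141 in MKN45 without LV-ZNF165 and 167 to 248 with it, and LYZ, which gastric epithelium also makes, gave most of it in MKN45. Of 12 fibroblast and endothelial markers, 4 had at most 3 counts in every library (DCN, LUM, KDR and CLEC14A). COL1A1 had 271 to 2090 counts and ACTA2 4 to 282. The 12 together made up 93.1 to 123 CPM in MKN28 without the siRNA and 28.4 to 45.9 with it, and 33.8 to 35.7 in MKN45 without LV-ZNF165 and 29.7 to 38.4 with it. The part of these markers in the results was not tested.

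Library totals ran from 12075813 to 19548445 counts. A count of 0 allows 0.248 CPM in the shallowest library and 0.153 in the deepest, the levels of 3 counts by unscaled totals. These limits cover counting error only, as the reads carried no molecular identifiers. Pearson correlations of log2 CPM between replicates, taken across genes, were 0.900 to 0.966 in knockdown libraries and 0.947 to 0.986 in the other 3 groups, with the lowest values for pairs that held knockdown replicate 1. The TMM factors were 0.917, 0.491 and 0.606 in knockdown libraries and 1.01 to 1.28 in the other 9. Knockdown replicates 2 and 3 had counts for 17620 and 17504 identifiers against 20425 to 22579 in the other libraries, with 20560 in knockdown replicate 1. The part of these differences in the results below was not tested, except through the alternatives named beside each result.

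ZNF165 itself (chromosome 6, 28080975 to 28089563, plus strand, GRCh38 in GENCODE 29) followed the labels in each library. It measured 11.97, 9.36 and 13.1 CPM in MKN28 controls and 5.35, 4.57 and 3.01 CPM in knockdown libraries. In MKN45 it measured 7.70, 9.07 and 15.6 CPM in controls and 94.3, 84.8 and 93.3 CPM in overexpression libraries. The groups did not overlap in either line, and the controls of both lines lay at similar levels (11.5 ± 1.93 and 10.8 ± 4.20 CPM). The change was unequal in size: ZNF165 was 2.65-fold higher in control than in knockdown cells and 8.42-fold higher in overexpressing than in control cells (line difference 1.67, SE 0.53, edgeR adjusted p = 0.0421). That difference was lost when any 1 library other than MKN28 knockdown replicates 1 and 3 was left out (adjusted p up to 0.12). The MKN45 change was itself no longer called without any 1 of the 6 MKN45 libraries or MKN28 control replicates 1 or 3 (adjusted p up to 0.175). Reads of LV-ZNF165 and of the cell's own gene were not counted apart.

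Of the 17266 genes tested, 3017 had a called line difference, which is 17.5%. The difference was above 0 for 1397 genes (8.09%) and below 0 for 1620 (9.38%). The smallest called difference was 1.22 in size on the log2 scale, and the median standard error over all genes was 0.72. Changes in MKN28 were far larger than in MKN45. Among the called genes the median absolute log2 change was 2.97 in MKN28 and 0.48 in MKN45, and over all tested genes it was 1.39 and 0.44. In the same fit 8734 genes (50.6%) changed with the knockdown, 27% of all genes being higher and 23.6% lower where ZNF165 was higher, and 3 genes (0.0174%) with overexpression: ZNF165, CCNL1 and NFKBIZ. In MKN45, 1655 genes reached an unadjusted p under 0.05, DESeq2 called 141, and a fit of the 6 MKN45 libraries alone called 179 of 15833 (1.13%). A fit of the 6 MKN28 libraries alone called 6092 of 14939 (40.8%). The 12-library fit pools 1 estimate of spread for all groups, and knockdown libraries varied more between replicates than overexpression libraries did. Values of the MKN45 fit alone are therefore given for some genes.

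Control and manipulated libraries did not overlap for 49.4% of genes in MKN28 and for 36.2% in MKN45. The called genes were sorted by what they did in each line. For 2960 of the 3017 the MKN28 change alone passed the threshold, for 2 both changes passed with the same sign (ZNF165 and NFKBIZ), for 1 the MKN45 change alone passed (CCNL1), and for 54 neither passed. For none did both changes pass with opposite signs in edgeR, against 12 genes in DESeq2, 119 at unadjusted p under 0.05 in edgeR and 32 in limma voom with 1 weight per group, a fit added after the data were seen that gives each group its own spread. The size of the MKN28 change exceeded that of the MKN45 change for 2943 called genes and was smaller for 74. The estimated MKN45 change was under 0.5 in size for 1552. Estimated changes had opposite signs for 1022 called genes and the same sign for 1995. Over all tested genes 67.8% had the same sign in both lines, and among the genes that passed in MKN28 it was 79.1%. The changes of the 2 lines correlated across genes with a Pearson r of 0.40 and a Spearman rank correlation of 0.49. The lines share no library, but genes are not independent replicates, and transcript length and GC content, described below, went with the change in both lines.

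**Figure D1:**
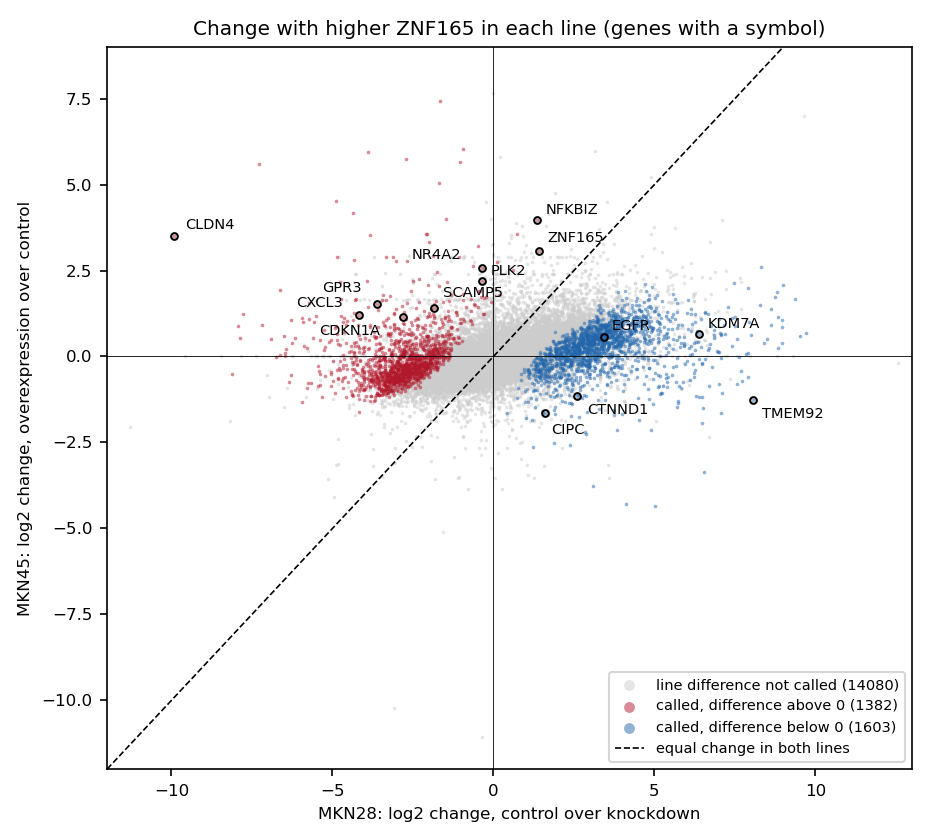
Each point is a tested gene with a symbol, placed by its log2 change with higher ZNF165 in MKN28 (horizontal) and in MKN45 (vertical); red and blue points are genes whose line difference was called above or below 0, and the dashed line marks equal changes. Called genes spread widely along the MKN28 axis and little along the MKN45 axis, with median absolute changes of 2.97 and 0.48, and the 14 labelled genes include CXCL3, GPR3 and CTNND1, which lie on opposite sides of 0 in the 2 lines.

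Several of the genes described next belong to transcription programmes read out by well-known promoter elements: the kB site bound by NF-kB, the cyclic AMP response element bound by CREB and its relatives, and the CArG box bound by serum response factor. The 250 bases before the start of 5 called genes are shown because they hold such an element, with each match in capitals (RefSeq, GRCh38.p14, 5′ to 3′ on the gene's strand). The kB site was searched as GGGANNTTCC, where N is any base, and the cyclic AMP response element as TGACGTCA, both on both strands. The CArG box was searched on both strands by its usual consensus.
CXCL3 promoter, chr4:74038690-74038939, minus strand: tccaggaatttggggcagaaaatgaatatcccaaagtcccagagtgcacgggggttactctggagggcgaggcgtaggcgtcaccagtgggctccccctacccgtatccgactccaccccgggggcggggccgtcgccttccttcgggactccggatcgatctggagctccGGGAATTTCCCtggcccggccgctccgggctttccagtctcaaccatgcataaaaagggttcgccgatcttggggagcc
NFKBIZ promoter, chr3:101827740-101827989, plus strand: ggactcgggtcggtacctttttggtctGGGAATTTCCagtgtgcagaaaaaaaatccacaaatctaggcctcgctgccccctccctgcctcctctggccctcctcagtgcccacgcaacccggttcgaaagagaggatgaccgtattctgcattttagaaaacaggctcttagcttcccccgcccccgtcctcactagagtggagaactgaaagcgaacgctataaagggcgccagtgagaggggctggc
GPR3 promoter, chr1:27392372-27392621, plus strand: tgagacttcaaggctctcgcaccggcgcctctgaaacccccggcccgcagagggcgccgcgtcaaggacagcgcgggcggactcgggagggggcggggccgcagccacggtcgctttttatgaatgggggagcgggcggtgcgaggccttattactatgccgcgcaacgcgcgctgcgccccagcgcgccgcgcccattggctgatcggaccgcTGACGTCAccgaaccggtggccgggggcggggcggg
CCNL1 promoter, chr3:157160148-157160397, minus strand: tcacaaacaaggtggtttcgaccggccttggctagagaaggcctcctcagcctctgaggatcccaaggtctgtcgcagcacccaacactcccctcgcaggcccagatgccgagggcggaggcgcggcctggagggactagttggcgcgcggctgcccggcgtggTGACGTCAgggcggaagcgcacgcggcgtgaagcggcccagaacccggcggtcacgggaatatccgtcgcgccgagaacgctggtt
EGR1 promoter, chr5:138465229-138465478, plus strand: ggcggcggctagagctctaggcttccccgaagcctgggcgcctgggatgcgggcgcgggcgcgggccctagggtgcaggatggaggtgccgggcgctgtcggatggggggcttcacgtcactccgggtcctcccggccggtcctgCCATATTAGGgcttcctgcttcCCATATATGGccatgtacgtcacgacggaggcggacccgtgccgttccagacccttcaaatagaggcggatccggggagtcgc
The CXCL3 stretch holds a pair of overlapping kB matches that begin 79 and 78 bases before the start, and NFKBIZ holds 1 that begins 223 bases before it. Starts here are those of RefSeq, whereas the gene intervals given with the values are those of GENCODE, which span all of a gene's transcripts. On the GENCODE interval the CCNL1 stretch and the part of the CXCL3 stretch that holds its matches lie inside the gene. The cyclic AMP element begins 36 bases before the start of GPR3 and 86 bases before that of CCNL1. EGR1 holds 2 CArG matches, beginning 105 and 83 bases before the start. Over the same 250 bases of 27305 RefSeq promoters, 1.42% held the kB site, 1.77% the cyclic AMP element and 1.14% the CArG box. Of the 110 called genes described here by rule, 82 had an entry in that table, and 2 of these held the kB site, 7 the cyclic AMP element and 2 the CArG box. A match describes these letters only and says nothing on whether a factor binds there.

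For 370 genes (2.14%) the manipulated libraries lay on the same side of their own controls in both lines, with no overlap in either. Their changes relative to ZNF165 thus had opposite signs. Of these genes 271 were among the called genes, 118 above and 153 below 0 (0.683% and 0.886% of the genes tested). Among the 271 the median absolute log2 change was 1.99 in MKN28 and 0.74 in MKN45. For none of the 271 did the MKN45 change itself pass in the 12-library fit. The p-values of the line difference, and the settings that kept it, do not test the MKN45 change alone. CXCL3 (chromosome 4, 74036589 to 74038807, minus strand), a chemokine that draws neutrophils, had 0.457, 0.654 and 0.595 CPM in MKN28 controls and 8.81, 8.46 and 13.9 CPM after knockdown. In MKN45 it had 6.72, 9.84 and 4.16 CPM in controls and 17.98, 12.4 and 17.2 CPM with overexpression. All manipulated libraries thus lay above their own controls in both lines. It rose 18.1-fold on knockdown and was 2.30-fold higher with overexpression (MKN45 adjusted p = 0.406, or 0.0824 in the fit of MKN45 alone), and the lines differed (line difference 5.38, SE 0.61, edgeR adjusted p = 0.000934). CXCL3 is closely similar in sequence to CXCL1 and CXCL2, so its reads may be split with them. CXCL2 was called above 0 (5.59), while CXCL1 had a difference of −2.78 that did not pass (edgeR adjusted p = 0.409).

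GPR3 (chromosome 1, 27392644 to 27395814, plus strand) is a receptor that raises cyclic AMP without a known hormone. Its level was 6.81, 10.97 and 3.38 CPM in MKN28 controls and 44.5, 122 and 95.9 CPM after knockdown, and 1.38, 2.27 and 1.18 CPM in MKN45 controls and 5.17, 4.33 and 4.35 CPM with overexpression. Both manipulated groups lay above their controls with no overlap, 12.4-fold in MKN28 and 2.87-fold in MKN45 (line difference 5.15, SE 0.71, edgeR adjusted p = 0.00194). The MKN45 change of GPR3 did not pass in the fit of all libraries. CDKN1A (chromosome 6, 36676460 to 36687339, plus strand), the p21 inhibitor of cyclin-dependent kinases, measured 146, 237 and 96.1 CPM in MKN28 controls and 507, 1693 and 1191 CPM after knockdown. In MKN45 it measured 128, 153 and 110.4 CPM and 295, 281 and 299 CPM. It rose 7.07-fold on knockdown, and in the fit of MKN45 alone it rose 2.24-fold with overexpression (edgeR adjusted p = 0.0412), giving a line difference of 3.98 (edgeR adjusted p = 0.00338).

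The splicing factor SRSF2 had the same arrangement at 70.7 ± 7.65 and 176 ± 10.4 CPM in MKN28 and 35.7 ± 5.19 and 72.5 ± 21.8 CPM in MKN45, with no overlap in either line (line difference 2.34, SE 0.45, edgeR adjusted p = 0.00684). MUC4, a large membrane mucin of secretory epithelia, was low in MKN28 at 0.274, 0.503 and 0.0915 CPM in controls and 1.59, 2.29 and 2.46 CPM after knockdown. In MKN45 it measured 10.1, 9.59 and 9.11 CPM in controls and 35.95, 28.4 and 15.9 CPM with overexpression (line difference 4.31, SE 0.71, edgeR adjusted p = 0.00435). SCAMP5, a protein of secretory vesicles, was 3.58-fold and 2.68-fold above its controls in MKN28 and MKN45 (line difference 3.26, SE 0.66, edgeR adjusted p = 0.00823). CXCL3, GPR3, CDKN1A, SRSF2, MUC4 and SCAMP5 kept their call in all 23 settings run, which count the reported fit and 22 alternatives. BRME1 and ATF7IP2 had the same arrangement with differences of 2.74 and 2.34, but both lost their call without MKN28 control replicate 1, MKN45 control replicates 1 or 3, or overexpression replicate 1, with adjusted p up to 0.0588 and 0.0725. ATF7IP2 also lost it without overexpression replicates 2 or 3 and by library totals alone.

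The opposite arrangement, lower than control after both manipulations, was seen in CTNND1 (chromosome 11, 57753243 to 57819546, plus strand), which encodes p120-catenin, a stabiliser of E-cadherin at cell junctions. It had 382, 267 and 511 CPM in MKN28 controls and 61.9, 58.1 and 73.2 CPM after knockdown, and 521, 434 and 373 CPM in MKN45 controls and 204, 193 and 207 CPM with overexpression. It fell to a level 6.01-fold below control in MKN28 and, in the fit of MKN45 alone, 2.20-fold below control in MKN45 (edgeR adjusted p = 0.0443), and the lines differed by −3.72 (SE 0.46, edgeR adjusted p = 0.0014). CIPC (chromosome 14, 77098097 to 77117287, plus strand), a repressor that binds the clock protein CLOCK, measured 12.8, 8.16 and 4.71 CPM and 1.44, 3.89 and 3.28 CPM in MKN28 and 13.7, 9.39 and 17.5 CPM and 5.26, 4.42 and 3.23 CPM in MKN45. It was 3.02-fold below control after knockdown and 3.15-fold below control with overexpression (MKN45 alone, edgeR adjusted p = 0.0489; line difference −3.25, SE 0.68, edgeR adjusted p = 0.00956). The zinc-finger gene ZNF250 lay at 7.12 ± 0.308 and 2.82 ± 0.742 CPM in MKN28 and at 6.94 ± 0.487 and 2.94 ± 0.571 CPM in MKN45, so that both lines started and ended at nearly the same level (line difference −2.56, SE 0.52, edgeR adjusted p = 0.00809).

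EGLN3, a prolyl hydroxylase that marks hypoxia-inducible factors for destruction, was far higher in MKN45 than in MKN28 and was below control in both (7.35 ± 3.69 and 1.72 ± 0.423 CPM in MKN28, 153 ± 19.1 and 69.7 ± 13.3 CPM in MKN45; line difference −3.24, SE 0.56, edgeR adjusted p = 0.00525). RAB3A, a small GTPase of regulated secretion, had 83, 252 and 54 counts in MKN28 controls and 0, 5 and 1 after knockdown, against 136, 182 and 178 and 91, 88 and 86 counts in MKN45 (line difference −6.08, SE 1.09, edgeR adjusted p = 0.00535). TMEM92, a membrane protein, had 30, 70 and 17 counts in MKN28 controls and 0 in all 3 knockdown libraries, so that it was at least 18.8-fold higher in control, while it went from 22.96 ± 5.32 to 9.60 ± 0.754 CPM in MKN45 (edgeR adjusted p of the line difference = 0.00329). The limit for a group with 0 counts was set at 3 counts over its 3 libraries. CTNND1, CIPC, ZNF250, EGLN3, RAB3A and TMEM92 kept their call in all 23 settings. ABAT, a transaminase that breaks down GABA, had a difference of −2.76 and lost its call without knockdown replicates 2 and 3 together. ARG2, the mitochondrial arginase, at −3.11, lost it there, under limma voom with 1 weight per group and without overexpression replicate 1 (adjusted p = 0.0514). STC1, a secreted glycoprotein, rested in MKN28 on 20, 1 and 2 control counts and 0 in each knockdown library, and its call was lost without any 1 of 8 libraries (adjusted p up to 0.0983), MKN28 control replicate 1 among them.

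**Figure D2:**
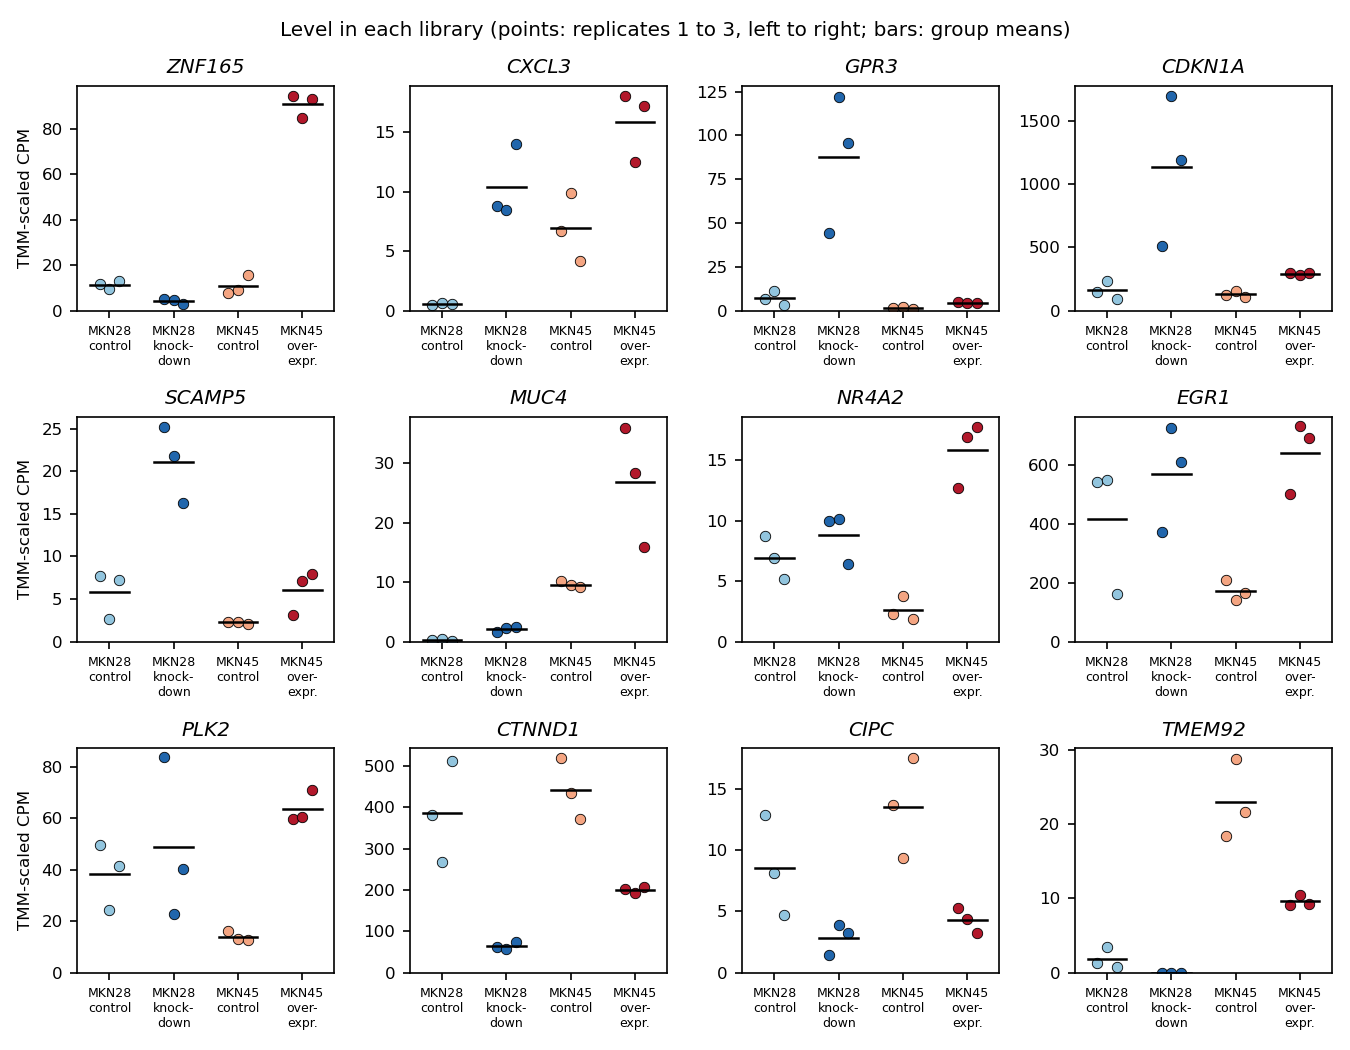
TMM-scaled CPM of 12 genes in each library (points, replicates 1 to 3 from left to right within a group) with group means (bars), on linear axes that start at 0. ZNF165 moved down in MKN28 and up in MKN45; CXCL3, GPR3, CDKN1A, SCAMP5 and MUC4 were above control in both lines, CTNND1, CIPC and TMEM92 below control in both, and NR4A2, EGR1 and PLK2 overlapped in MKN28 and separated in MKN45.

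A smaller set changed mainly in MKN45: 74 called genes had the larger change there, 57 above and 17 below 0. Of the 179 genes called in the fit of MKN45 alone, 45 had a called line difference, and 135 had the same sign in both lines. Immediate early genes, which cells switch on within minutes of a growth factor or stress signal without new protein synthesis, were among them. NR4A2 (chromosome 2, 156324432 to 156342348, minus strand), an orphan nuclear receptor, had 8.73, 6.90 and 5.17 CPM in MKN28 controls and 9.97, 10.2 and 6.43 CPM after knockdown, which overlap, and 2.27, 3.82 and 1.86 CPM in MKN45 controls and 12.7, 16.9 and 17.8 CPM with overexpression, which do not. It rose 5.97-fold in the MKN45 fit alone (edgeR adjusted p = 0.0202), and its line difference held in all 23 settings (line difference 2.94, SE 0.57, edgeR adjusted p = 0.00724). EGR1 (chromosome 5, 138465490 to 138469315, plus strand), a zinc-finger activator, measured 541, 547 and 160.3 CPM and 373, 724 and 609 CPM in MKN28 and 210.05, 142 and 166 CPM and 499.8, 732 and 689 CPM in MKN45 (line difference 2.34, SE 0.62, edgeR adjusted p = 0.0228). Its MKN45 controls had the lowest mean of the 4 groups, and the overexpression libraries lay close to the range of the MKN28 libraries. PLK2 (chromosome 5, 58453982 to 58460260, minus strand), a polo-like kinase and p53 target, had 16.1, 13.2 and 12.9 CPM in MKN45 controls and 59.8, 60.6 and 70.96 CPM with overexpression, while MKN28 controls (49.8, 24.5 and 41.3 CPM) and knockdown libraries (83.8, 22.7 and 40.5 CPM) overlapped (line difference 2.53, SE 0.63, edgeR adjusted p = 0.0172).

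BTG2, an antiproliferative cofactor, went from 25.8 ± 7.49 to 90.9 ± 35.1 CPM in MKN45 and from 8.32 ± 5.23 to 16.02 ± 5.15 CPM on knockdown (line difference 2.76, SE 0.68, edgeR adjusted p = 0.0168). HES1, a repressor in the Notch pathway, went from 33.2 ± 6.79 to 111 ± 9.16 CPM in MKN45 and had 61.7 ± 33.97 and 72.5 ± 14.2 CPM in MKN28 (line difference 1.97, SE 0.60, edgeR adjusted p = 0.0381). The MKN28 changes of NR4A2, EGR1, PLK2, BTG2 and HES1 did not pass (edgeR adjusted p = 0.114 to 0.674). Some of these calls rested on single libraries. PLK2 lost its call without MKN45 control replicate 3 (adjusted p = 0.0636), EGR1 without that library or overexpression replicates 2 or 3 (up to 0.0608), BTG2 without MKN28 control replicate 1, MKN45 control replicates 1 or 3 or overexpression replicate 3 (up to 0.0543), and HES1 without any 1 of 9 libraries (up to 0.103). By library totals alone PLK2, EGR1 and HES1 did not pass.

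CCNL1 and NFKBIZ changed in the same direction relative to ZNF165 in both lines but more in MKN45. CCNL1 (chromosome 3, 157146508 to 157160760, minus strand), a cyclin tied to splicing kinases, measured 63.3, 45.96 and 72.4 CPM in MKN28 controls, 46.01, 32.7 and 39.9 CPM after knockdown, 28.6, 22.5 and 33.9 CPM in MKN45 controls and 128, 167 and 193 CPM with overexpression. It rose 5.73-fold with overexpression (edgeR adjusted p = 0.0255 in the fit of all libraries), while its MKN28 change of 0.61 did not pass (line difference 1.90, SE 0.47, edgeR adjusted p = 0.0168). NFKBIZ (chromosome 3, 101827991 to 101861022, plus strand), a nuclear inhibitor-kappa-B protein that steers NF-kB targets, had 8.86, 4.43 and 3.93 CPM in MKN28 controls and 4.05, 1.49 and 0.957 CPM after knockdown. In MKN45 it had 0.790, 0.842 and 0.787 CPM in controls and 9.86, 13.99 and 13.98 CPM with overexpression, a rise of 15.5-fold against a 2.57-fold difference between control and knockdown in MKN28 (line difference 2.59, SE 0.73, edgeR adjusted p = 0.0282). The CCNL1 call was lost without MKN28 control replicate 1, MKN45 control replicate 1 or overexpression replicate 3 (adjusted p up to 0.0566) and by library totals alone. That of NFKBIZ was lost without any 1 of 6 libraries, among them all overexpression replicates (up to 0.083), and by library totals and both forms of limma voom. In the negative direction NUPR1, a stress-induced nuclear protein (−2.83), and NGFR, the p75 neurotrophin receptor (−3.02), fell in the MKN45 fit alone (edgeR adjusted p = 0.0489 and 0.0396). Both lost the line difference without any 1 of several libraries, all MKN45 overexpression replicates among them (adjusted p up to 0.099 and 0.0674).

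The most frequent pattern was a change in MKN28 with little in MKN45. On the positive side C6orf226, an uncharacterised reading frame, rose 42.7-fold on knockdown, from 1.46, 3.37 and 1.33 to 38.4, 119 and 107 CPM, and stood at 2.71 ± 0.909 and 2.01 ± 0.462 CPM in MKN45 (line difference 4.99, SE 0.73, edgeR adjusted p = 0.00259). S100A2, a calcium-binding protein of epithelia, rose 25.5-fold from 0.344 ± 0.0588 to 9.01 ± 4.48 CPM, and SUSD4, a regulator of complement, 18.6-fold from 0.303 ± 0.159 to 5.73 ± 1.08 CPM. In MKN45 they measured 5.85 ± 2.24 and 6.04 ± 2.70 CPM, and 5.90 ± 0.777 and 7.24 ± 0.842 CPM. Their line differences were 4.72 and 4.51 (edgeR adjusted p = 0.00338 and 0.00178). After knockdown, S100A2 and SUSD4 in MKN28 thus had levels within the range of the MKN45 libraries or close to it. TENM4, a teneurin adhesion protein, had at most 1 count in any MKN28 control, 6 to 14 counts after knockdown, and group means of 5.22 and 5.74 CPM in MKN45.

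On the negative side the 5 genes chosen by size were low in MKN28 controls, at group means under 1 CPM. PPP2R2C, a regulatory subunit of protein phosphatase 2A, had 23, 26 and 10 counts in MKN28 controls and 0 in the knockdown libraries, at least 9.36-fold lower, against 22.2 ± 2.29 and 21.7 ± 2.68 CPM in MKN45. The mitochondrial glutaminase GLS2, the chondroitin sulfotransferase CHST3, the peroxiredoxin-like PRXL2A and the GTPase exchange factor VAV3 were likewise at 0 in all 3 knockdown libraries, with 3 to 24 counts in each MKN28 control and group means of 7.08 to 70.4 CPM in MKN45. Control over knockdown was at least 5.32, 6.26, 5.03 and 6.05-fold for them. VAV3 lost its call without any 1 of 7 libraries (adjusted p up to 0.0609), and VAV3 and CHST3 under limma voom with 1 weight per group and without knockdown replicates 2 and 3 together. C6orf226, S100A2, SUSD4, TENM4, PPP2R2C, GLS2 and PRXL2A kept their call in all 23 settings. In all, 20 called genes had at most 3 counts in each MKN45 library, so no MKN45 change could be seen for them, and 6 had at most 3 counts in each MKN28 library.

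Gene lists were then compared by their medians and counts, beside 8.09% called above and 9.38% below 0 over all genes tested. Without knockdown replicate 1 the same 17266 genes gave 3174 calls above 0 and 4960 below, so counts in the lists below also depend on that library, and counts without it are given for several of them. By library totals alone the 17266 genes gave 615 above and 2503 below 0, with a median of −0.84. With the length and GC trend removed they gave 1925 above and 2895 below 0, with a median of −0.24. The mitochondrial respiratory chain makes ATP from proteins coded in the nucleus and in mitochondrial DNA. Of 36 nuclear genes of oxidative phosphorylation, 14 were called above 0, 0 below and 22 did not pass, with a median difference of 1.49 against −0.20 over all genes. Their summed level was 3028, 4631 and 2934 CPM in MKN28 controls and 9987, 20863 and 17690.1 CPM after knockdown, and 3977, 6149 and 4389 CPM in MKN45 controls and 3532, 3060.4 and 3184 CPM with overexpression. All knockdown libraries were higher than their controls, and in MKN45 the overexpression libraries were lower than all controls. Both manipulations thus left the list lower where ZNF165 was higher, by medians of −2.05 and −0.61, and the line difference is one of size. NDUFB7 of complex I rose 16.6-fold on knockdown (line difference 3.46, SE 0.80, edgeR adjusted p = 0.0136), CYC1 of complex III 9.34-fold and COX8A of complex IV 9.16-fold, with differences of 2.68 and 2.55.

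Cytosolic ribosomal proteins followed the same course: 9 of 37 were called above 0 and 0 below, with medians of −2.01 in MKN28, −0.92 in MKN45 and 1.04 for the difference. Their summed level was 14204, 23805 and 12793 CPM in MKN28 controls, 50755, 118193 and 95471 CPM after knockdown, 28323, 40970.00 and 32196 CPM in MKN45 controls and 17053, 17246 and 18945 CPM with overexpression. RPL35 and RPLP1 rose 16.3 and 10.6-fold on knockdown, with line differences of 2.77 and 2.41. Reads of ribosomal protein genes can be shared with their many pseudogenes. Of the 13 mitochondrially encoded genes none was called by edgeR (2 above 0 at unadjusted p under 0.05, and 2 above 0 by DESeq2), with a median of 0.77 that moved to −0.01 by library totals alone, where 4 were called below 0. With upper-quartile factors 1 was called above 0, and without knockdown replicate 1 there were 3. MT-CO1, a core subunit of complex IV, had a difference of −0.12 (edgeR adjusted p = 0.926). Mitochondrially encoded genes took 2.27 to 7.05% of counts in MKN28 and 9.27 to 13.8% in MKN45. By library totals alone 4 of the 36 nuclear and 4 of the 37 ribosomal genes were called above 0, with medians of 0.75 and 0.35. The TMM factors of knockdown replicates 2 and 3 were the lowest of the 12, and their part in these values was not tested. RPL35, RPLP1, CYC1 and COX8A each lost their call without knockdown replicates 2 and 3 together, and without MKN28 control replicates 1 or 3, MKN45 control replicates 1 or 3 or overexpression replicate 1 (adjusted p up to 0.109), and NDUFB7 only without knockdown replicates 2 and 3 together among the settings run.

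**Figure D3:**
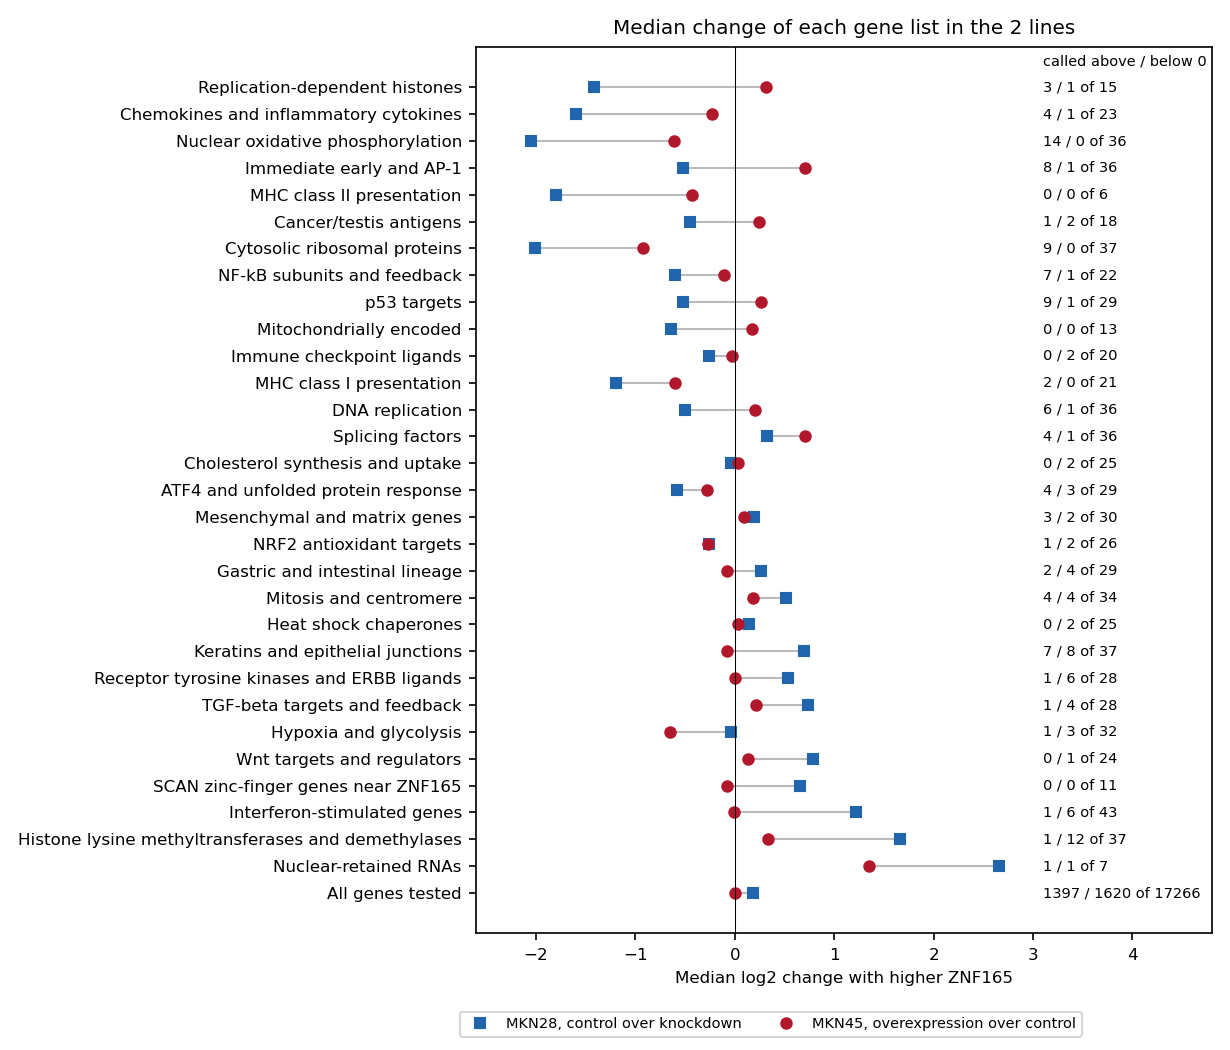
Median log2 change with higher ZNF165 of each gene list in MKN28 (squares) and MKN45 (circles), ordered by the median line difference, with the number of members called above and below 0 among those tested at the right; the bottom row holds all genes tested. Nuclear oxidative phosphorylation genes and ribosomal proteins lie below 0 in both lines and further in MKN28, histone methyltransferases and demethylases lie above 0 in both, and immediate early genes and p53 targets lie on opposite sides of 0.

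Immediate early and AP-1 genes had 8 of 36 members called above 0 and 1 below, with a median of −0.52 in MKN28, 0.70 in MKN45 and 1.40 for the difference, or 0.61 by library totals alone. Without knockdown replicate 1 the counts were 13 above and 2 below. FOSL1 (Fra-1), a subunit of AP-1, had 93.5, 90.3 and 100.03 CPM in MKN28 controls and 513, 2568 and 1435 CPM after knockdown, and 40.00, 89.6 and 66.9 CPM and 96.7, 92.5 and 97.5 CPM in MKN45. It rose 15.9-fold on knockdown and was called in all 23 settings (line difference 4.54, SE 0.69, edgeR adjusted p = 0.00324). FOS, the partner of JUN in AP-1, was the member called below 0: it fell from 324 ± 194 to 36.5 ± 7.78 CPM on knockdown and had 137 ± 45.8 and 221 ± 48.9 CPM in MKN45 (line difference −2.46, SE 0.67, edgeR adjusted p = 0.0258). It lost its call with the replicate block and without MKN28 control replicate 1, MKN45 control replicate 1 or overexpression replicates 1 or 2 (adjusted p up to 0.0725). MAFF, a small Maf protein, at 3.41, lost its call without any 1 of 9 libraries (adjusted p up to 0.0865). Targets of p53, the stress-activated tumour suppressor, had 9 of 29 called above 0 and 1 below, with a median difference of 0.81, or 0.39 by library totals alone, and had 12 above and 7 below without knockdown replicate 1. SESN2, a stress sensor that holds back mTORC1, went from 76.6 ± 3.05 to 1613 ± 822 CPM on knockdown and from 128 ± 26.3 to 114 ± 38.1 CPM in MKN45 (line difference 4.23, SE 0.60, edgeR adjusted p = 0.00226), and PHLDA3, an inhibitor of AKT, rose 7.60-fold on knockdown (3.38).

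NF-kB is a family of transcription factors held in the cytoplasm by inhibitor proteins, several of which are its own targets. Of 22 subunits and feedback genes 7 were called above 0 and 1 below, with a median difference of 0.95. By library totals alone the median was 0.12, against −0.84 over all genes, and 4 were called above 0. Without knockdown replicate 1 the counts were 10 above and 3 below. The subunit RELB went from 21.8 ± 7.70 to 251 ± 122 CPM on knockdown and from 16.9 ± 3.51 to 10.2 ± 3.22 CPM in MKN45 (line difference 2.80, SE 0.62, edgeR adjusted p = 0.0116). TNIP2, an inhibitor of the pathway, rose 8.30-fold on knockdown (line difference 2.80, SE 0.56, edgeR adjusted p = 0.00809). BIRC3, which encodes a ubiquitin ligase and is a target of NF-kB, fell from 19.2 ± 3.28 to 1.17 ± 0.742 CPM on knockdown and had 11.4, 1.94 and 11.4 CPM in MKN45 controls and 14.9, 20.3 and 25.5 CPM with overexpression. Its call below 0 (−2.68) was lost without any 1 of 9 libraries (adjusted p up to 0.105). Among 23 chemokines and cytokines 4 were called above 0 and 1 below (median 1.49, or 0.67 by library totals alone). Those above 0 were CXCL2, CXCL3, CXCL8 and IL23A, and the one below 0 was CCL22, a chemokine for regulatory T cells, which fell from 50.2 ± 42.4 to 6.49 ± 3.38 CPM on knockdown (−3.54, lost without any 1 of 8 libraries, adjusted p up to 0.084). IL23A, the p19 subunit of interleukin 23, had 1.32, 3.02 and 1.14 CPM in MKN28 controls and 41.03, 55.1 and 85.3 CPM after knockdown against 1.09 ± 0.286 and 0.769 ± 0.371 CPM in MKN45, and was called in all 23 settings (line difference 4.54, SE 0.74, edgeR adjusted p = 0.00435). CXCL8, interleukin 8, had 174, 18.9 and 8.34 CPM in the 3 knockdown libraries and 7.08, 9.26 and 7.14 CPM in their controls. Its difference of 4.05 was 1.73 without knockdown replicate 1, and the call was lost without any 1 of 6 libraries (adjusted p up to 0.0818).

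Few genes of immune recognition were called in the reported fit, where 8.09% of all genes tested were called above and 9.38% below 0. More were called without knockdown replicate 1, but calls also rose over all genes, to 3174 above and 4960 below 0 of 17266. Whether these lists differ from all genes was not tested. Of 21 genes of MHC class I presentation 2 were called above 0 and 0 below, with a median of 0.64 that was −0.09 by library totals alone. With knockdown replicate 1 left out, 7 were called above and 3 below 0. Class II genes then had 3 above and 0 below, and checkpoint ligands 5 and 5. PSMB8, a subunit of the immunoproteasome, had 1, 0 and 0 counts in MKN28 controls and 5, 15 and 13 after knockdown, against 1448 to 2268 in MKN45 libraries. TAP2, a subunit of the peptide transporter, had a difference of 1.69 that was lost without any 1 of 10 libraries (adjusted p up to 0.121). None of 6 class II genes was called in the reported edgeR fit (3 above 0 at unadjusted p under 0.05, 1 by DESeq2). Of 20 checkpoint ligands 0 were called above and 2 below 0. TNFSF4, the OX40 ligand, was barely counted and lower than control in both lines, with 17, 11 and 13 counts in MKN28 controls, 0 in each knockdown library, 3, 4 and 13 in MKN45 controls and 0, 1 and 1 with overexpression (edgeR adjusted p = 0.00628). In MKN28 it was at least 6.40-fold higher in control. The other was BTN3A1, a butyrophilin seen by gamma-delta T cells, which fell from 10.5 ± 0.255 to 2.51 ± 1.01 CPM on knockdown and had 9.36 ± 1.55 and 9.66 ± 1.06 CPM in MKN45 (line difference −1.99, SE 0.52, edgeR adjusted p = 0.0211). That call was lost without any 1 of 6 libraries (adjusted p up to 0.0653). Interferon-stimulated genes had 1 of 43 called above 0 and 6 below, with a median of −0.97 for the difference, 1.22 in MKN28 and −0.01 in MKN45, and without knockdown replicate 1 the counts were 5 above and 18 below. HERC5, the ligase for ISG15, fell from 93.2 ± 31.02 to 9.91 ± 4.73 CPM on knockdown and had 5.89 ± 2.83 and 7.71 ± 0.780 CPM in MKN45 (line difference −2.84, SE 0.65, edgeR adjusted p = 0.0133). IFITM1 and BST2, membrane proteins that block viruses, had differences of −4.49 and −2.92. ISG15 itself, a ubiquitin-like modifier, was the member called above 0: it rose 10.8-fold on knockdown, from 251 ± 168 to 2713 ± 1659 CPM (2.60), and lost its call by library totals alone and without any 1 of 9 libraries (adjusted p up to 0.0951). BST2 lost its call without overexpression replicate 1 (adjusted p = 0.0503).

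Receptor tyrosine kinases and ligands of the ERBB family had 1 of 28 called above 0 and 6 below, with a median of −0.56. By library totals alone the median was −1.36 and 11 were called below 0, against −0.84 and 2503 of 17266 over all genes. EGFR had 270.2, 255 and 275 CPM in MKN28 controls and 34.96, 27.4 and 11.9 CPM after knockdown, and 109.9, 56.2 and 86.9 CPM and 118, 138 and 122 CPM in MKN45 (line difference −2.85, SE 0.56, edgeR adjusted p = 0.00745). MET, the receptor for hepatocyte growth factor, which is known to be amplified in MKN45, had 84.3, 62.9 and 70.7 CPM and 9.10, 2.86 and 1.64 CPM in MKN28 and 2311, 674 and 2056 CPM and 2081, 2459 and 2479.8 CPM in MKN45 (line difference −3.49, SE 0.78, edgeR adjusted p = 0.0118). MKN45 control replicate 2 was the lowest of its line for both EGFR and MET. The insulin receptor INSR fell from 15.4 ± 3.62 to 1.41 ± 0.154 CPM on knockdown (line difference −2.93, SE 0.62, edgeR adjusted p = 0.00957). EGFR, MET and INSR kept their call in all 23 settings. EPHA2, an ephrin receptor, was the member above 0, at 2.07, and lost its call without MKN45 control replicate 1 (adjusted p = 0.0519).

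Keratins and epithelial junction genes had members called on both sides, 7 of 37 above 0 and 8 below (median −0.52), or 10 and 17 without knockdown replicate 1. The 7 above 0 were the keratins KRT7, KRT8, KRT18, KRT81 and KRT86, which build intermediate filaments, the claudin CLDN4 and the epithelial transcription factor ELF3. The 8 below 0 were the junction genes CDH1, CTNND1, DSP, DSG2 and TJP1, the splicing regulator ESRP1, the transcription factor GRHL2 and the protocadherin FAT1. CDH1, which encodes E-cadherin, fell from 318, 419 and 274 to 105, 88.2 and 56.9 CPM on knockdown and had 366, 285 and 259 CPM in MKN45 controls and 289.7, 344 and 307 CPM with overexpression (line difference −1.96, SE 0.47, edgeR adjusted p = 0.0152), and it was called in all 23 settings. KRT8 rose 12.4-fold on knockdown, with 46360, 51457 and 64125 counts in MKN28 controls and 133470, 443431 and 253866 after knockdown (line difference 3.48, SE 0.79, edgeR adjusted p = 0.0126), and KRT7 rose 7.10-fold (2.41, lost without any 1 of 8 libraries, adjusted p up to 0.0902). KRT86 shares much of its sequence with KRT81. CLDN4, a tight-junction claudin, had the largest positive difference of all genes tested, 13.42 (SE 2.38, edgeR adjusted p = 0.00533), and its replicates disagreed. It had 34, 89 and 42 counts in MKN28 controls, 56, 40987 and 21578 after knockdown, 323, 71 and 406 in MKN45 controls and 2055, 367 and 7968 with overexpression. Knockdown replicate 1 lay among its controls, the groups overlapped in both lines, and without knockdown replicates 2 and 3 together the difference was 4.13 and not called. SNAI1, a repressor of E-cadherin, had means of 22.5 ± 14.5 and 76.9 ± 39.6 CPM in MKN28, which overlapped by library, and 0.776 ± 0.411 and 2.38 ± 0.519 CPM in MKN45 (line difference 3.39, SE 0.78, edgeR adjusted p = 0.0135), in a list of 30 mesenchymal and matrix genes with 3 called above and 2 below 0. The others were LAMB3 and TAGLN above, and ITGAV and CALD1 below 0. ITGAV lost its call without any 1 of 10 libraries (adjusted p up to 0.119) and CALD1 without any 1 of 9 (up to 0.189).

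Targets and feedback genes of TGF-beta had 1 of 28 called above and 4 below 0, or 3 and 11 without knockdown replicate 1. TGFBI, a matrix protein induced by TGF-beta, was the one above 0 and the clearest opposed gene at low counts, with 5, 4 and 5 counts in MKN28 controls, 68, 35 and 34 after knockdown, 5, 18 and 2 in MKN45 controls and 84, 79 and 69 with overexpression. It was above control in both lines with no overlap and was called in all 23 settings (line difference 7.13, SE 0.91, edgeR adjusted p = 0.0014). The 4 below 0 included LTBP1, SMAD6 and TGFBR3. LTBP1, which stores latent TGF-beta in the matrix, fell from 18.04 ± 2.77 to 1.69 ± 0.980 CPM on knockdown and had 56.9 ± 5.97 and 71.9 ± 3.59 CPM in MKN45 (line difference −3.03, SE 0.54, edgeR adjusted p = 0.00536). SMAD6, an inhibitor of BMP signalling, fell from 4.30 ± 0.280 to 0.463 ± 0.192 CPM and had 49.7 ± 8.45 and 59.3 ± 4.55 CPM in MKN45 (line difference −2.99, SE 0.52, edgeR adjusted p = 0.00533). LTBP1 and SMAD6 kept their call in all 23 settings. Of 24 Wnt genes 0 were called above and 1 below 0: TNFRSF19, at −3.73, which lost its call without MKN28 control replicate 1 or MKN45 control replicate 1 (adjusted p up to 0.0525). By library totals alone 7 Wnt genes were called below 0, beside 2503 of 17266 over all genes.

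Histone lysine methyltransferases and demethylases, which write and erase methyl marks on histone tails, had 12 of 37 called below 0 and 1 above, with medians of 1.66 in MKN28, 0.33 in MKN45 and −1.37 for the difference, and 26 below and 2 above without knockdown replicate 1. KDM7A, a demethylase of repressive marks, had 18.5, 11.3 and 13.1 CPM in MKN28 controls and 0.217, 0.229 and 0 CPM after knockdown, and 16.7, 3.76 and 10.3 CPM and 13.4, 16.3 and 18.9 CPM in MKN45 (line difference −5.74, SE 0.89, edgeR adjusted p = 0.00329). The enhancer methyltransferase KMT2C fell from 49.6 ± 19.99 to 2.46 ± 1.42 CPM on knockdown and had 32.5 ± 18.6 and 65.6 ± 5.46 CPM in MKN45 (line difference −3.29, SE 0.78, edgeR adjusted p = 0.0145). The 12 members below 0 were the demethylases KDM2A, KDM3B, KDM4A, KDM5A, KDM5B, KDM6B and KDM7A and the methyltransferases KMT2A, KMT2C, KMT2D, ASH1L and SETDB2. SUV39H1, a methyltransferase of heterochromatin, was the member called above 0: it rose 7.96-fold on knockdown (2.87), and lost its call by library totals alone and without any 1 of 7 libraries (adjusted p up to 0.0774). MALAT1, an abundant nuclear RNA, fell on knockdown from 524, 206 and 717 to 30.5, 14.9 and 9.98 CPM, 26.03-fold, and rose in the MKN45 fit alone from 80.3, 94.9 and 115 to 217, 268 and 278 CPM (edgeR adjusted p = 0.0341), so that both lines moved with ZNF165 and by different amounts (line difference −3.31, SE 0.67, edgeR adjusted p = 0.00823).

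Genes of DNA replication had 6 of 36 called above 0 and 1 below (median 0.53), and genes of mitosis 4 of 34 on each side (median −0.36, or 0.05 with the length and GC trend removed). Without knockdown replicate 1 the replication genes had 12 above and 9 below 0, and the genes of mitosis 6 above and 19 below with a median of −1.44. The helicase subunit MCM5 rose 7.12-fold on knockdown (line difference 3.02, SE 0.71, edgeR adjusted p = 0.0137), and its call was lost without MKN28 control replicate 1 (adjusted p = 0.0501). Topoisomerase TOP2A fell from 458, 241 and 405 to 20.9, 21.8 and 10.1 CPM on knockdown and had 623, 159 and 528 CPM in MKN45 controls and 764, 649 and 829 CPM with overexpression (line difference −3.60, SE 0.68, edgeR adjusted p = 0.00628). The spindle checkpoint kinase BUB1B fell from 104 ± 31.8 to 7.28 ± 6.03 CPM (−3.19), while the ubiquitin-conjugating enzyme UBE2C rose from 106 ± 14.8 to 778 ± 399.7 CPM on knockdown (2.35). Among 36 splicing factors 4 were called above 0, SRSF2, SRSF5, U2AF2 and HNRNPM, and 1 below, SRSF4. The median of the list was 0.39, or −0.21 by library totals alone and −0.29 without knockdown replicate 1. It was 0.84 with the length and GC trend removed, where 14 were called above and 3 below 0. Over all genes that setting gave 1925 of 17266 above and 2895 below 0. U2AF2, which finds the end of introns, rose 6.41-fold on knockdown (2.61), and SRSF4 fell 4.25-fold (−2.02). The other calls in mitosis were PLK1, CENPA and BIRC5 above 0 and TOP2A, DLGAP5 and MKI67 below 0.

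Hypoxia and glycolysis had 1 of 32 called above and 3 below 0, with TPI1 of glycolysis above 0 (2.30), and P4HA1, a collagen prolyl hydroxylase (−3.19), and the neuronal enolase ENO2 (−2.58) below 0 beside EGLN3. ATF4 and unfolded protein response genes had 4 of 29 above and 3 below 0, with SEL1L of the degradation pathway of the endoplasmic reticulum at −3.25. Those above 0 were SESN2, SLC3A2, SDF2L1 and CRELD2, and the others below 0 were PSAT1 and NUPR1. Of 25 heat shock chaperones 0 were above and 2 below 0, or 1 and 9 without knockdown replicate 1. HSPH1 was at −3.26, and HSPA1B (−4.40), which shares nearly all its sequence with HSPA1A, had 1806, 15717 and 1383 counts in MKN45 controls and lost its call without replicate 2 of them, among 7 libraries (adjusted p up to 0.0953). Of 25 cholesterol genes 0 were above and 2 below 0, among them SC5D (−3.41). NRF2 targets had 1 of 26 above, HMOX1 (2.50), and 2 below 0, AKR1C2 (−4.96) and its near-identical paralog AKR1C1 (−3.01). Gastric and intestinal lineage genes had 2 of 29 above 0, MUC13 (5.67) and SPDEF (2.72), and 4 below 0, AGR2, HNF4A (−3.35), FOXA3 and SOX9. AGR2, a secretory disulfide isomerase, was nearly absent from MKN28 (6, 13 and 3 counts in controls and 0 in knockdown libraries) and abundant in MKN45 (25239 to 56551 counts in controls and 31002 to 37917 with overexpression). Of 18 cancer/testis antigens other than ZNF165 1 was above 0, TEX14 (4.06), and 2 were below, the chromatin reader ATAD2 (−3.11) and ACRBP (−3.67). Histone genes had 3 of 15 above 0, H1-2, H3C4 and H2BC4, and 1 below. Among these genes the call was lost with any 1 of several libraries left out for SC5D (adjusted p up to 0.0865), AKR1C1 (0.0795), HMOX1 (0.0574), TPI1 (0.0687), SEL1L (0.0554), SPDEF (0.092), HNF4A (0.0618), MUC13 (0.162), ACRBP (0.0834) and TEX14 (0.0654), for ENO2 without overexpression replicate 1 (0.0533) and for H2BC4 without MKN45 control replicate 1 (0.0523). None of 11 SCAN zinc-finger genes of the ZNF165 cluster was called by edgeR (2 on each side at unadjusted p under 0.05, and 2 on each side by DESeq2), but without knockdown replicate 1 edgeR called 1 above and 6 below 0, and the median of the list moved from −0.88 to −1.93. Without that library the counts above and below 0 were also 7 and 8 for hypoxia and glycolysis, 9 and 9 for ATF4 and unfolded protein response genes, 9 and 9 for cholesterol genes and 2 and 10 for NRF2 targets. TRIM27, which lies near ZNF165, had a difference of 0.04 and did not pass.

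Called genes shared features that the contrast did not use. Genes called above 0 had a median GC content of 56.9% over the transcript and a median transcript length of 899 bases, and genes called below 0 had 46.3% and 1382 bases, against 50.3% and 1031 bases over all genes tested. In the promoter the 3 sets were close, with medians of 64.7, 65.7 and 65.0% GC and 26 CpG sites in each. Genes were divided into 4 bins of equal number by GC content. In the bin with the lowest transcript GC content 1.66% were called above and 14.2% below 0, and in the bin with the highest it was 15.2% and 4.13%. The median change with higher ZNF165 ran from 1.52 in the lowest to −0.94 in the highest bin in MKN28 and from 0.44 to −0.28 in MKN45, so the order was the same in both lines and the range wider in MKN28. With each library's trend on length and GC content removed, the bins ran from 8.02 to 14.8% above and from 15.8 to 18.1% below 0, and 4820 genes were called, of which 2708 were among the 3017. Protein-coding genes made up 73.8% of the genes called above, 89.3% of those called below and 80.1% of all tested, and 185 called genes (143 above, 42 below) were antisense or divergent by biotype or symbol, for which the strand of the reads is not known.

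**Figure D4:**
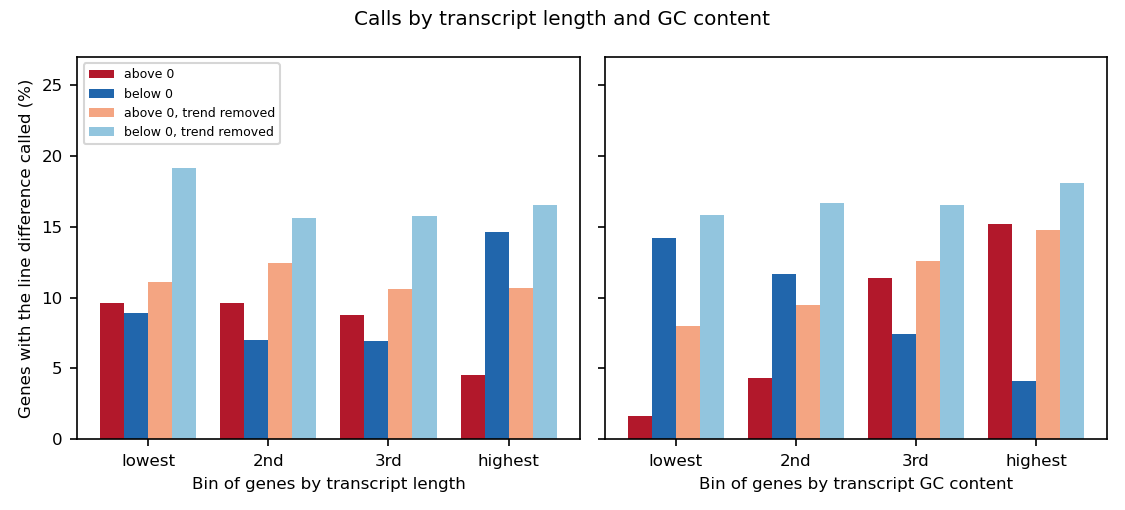
Share of genes with a called line difference above 0 (red) and below 0 (blue) in each of 4 equal bins of genes by transcript length (left) and transcript GC content (right), with pale bars after each library's length and GC trend was removed. The dark bars rise from 1.66 to 15.2% above 0 and fall from 14.2 to 4.13% below 0 across the GC bins, and the pale bars differ less between bins.

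How many genes were called depended on the fit. Over the alternatives the number ran from 1163 without MKN45 control replicate 1 to 8209 without knockdown replicate 1 and 11082 with limma voom library weights. Of the 3017, 958 were called with each of the 12 libraries left out in turn, and 553 (3.2% of the genes tested, 174 above and 379 below 0) in all 23 settings. Without knockdown replicates 2 and 3, whose descriptions name other genes, 1217 were called in a fit with 1 knockdown library, 878 of them among the 3017. By rule 110 called genes were chosen for description, and some of the rules were added after the data were seen. Many of the 110 lost their call in that fit. It was the only setting that ended the call for ABAT, ATAD2, BUB1B, CLDN4, H1-2, HERC5, HSPH1, KMT2C, KRT8, NDUFB7, PHLDA3, PSMB8, RELB, SNAI1, U2AF2 and UBE2C. Limma voom with 1 weight per group ended the call for 24 of the 110, among them AGR2, IFITM1, BST2, SC5D and SETDB2, and library totals alone ended it for 21, among them CYC1, RPLP1 and KRT7. By library totals alone 3118 genes were called and 19.7% of them were above 0, against 46.3% as reported. The median difference over all genes was then −0.84 against −0.20, so directions close to 0 depend on the scaling.

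**Figure D5:**
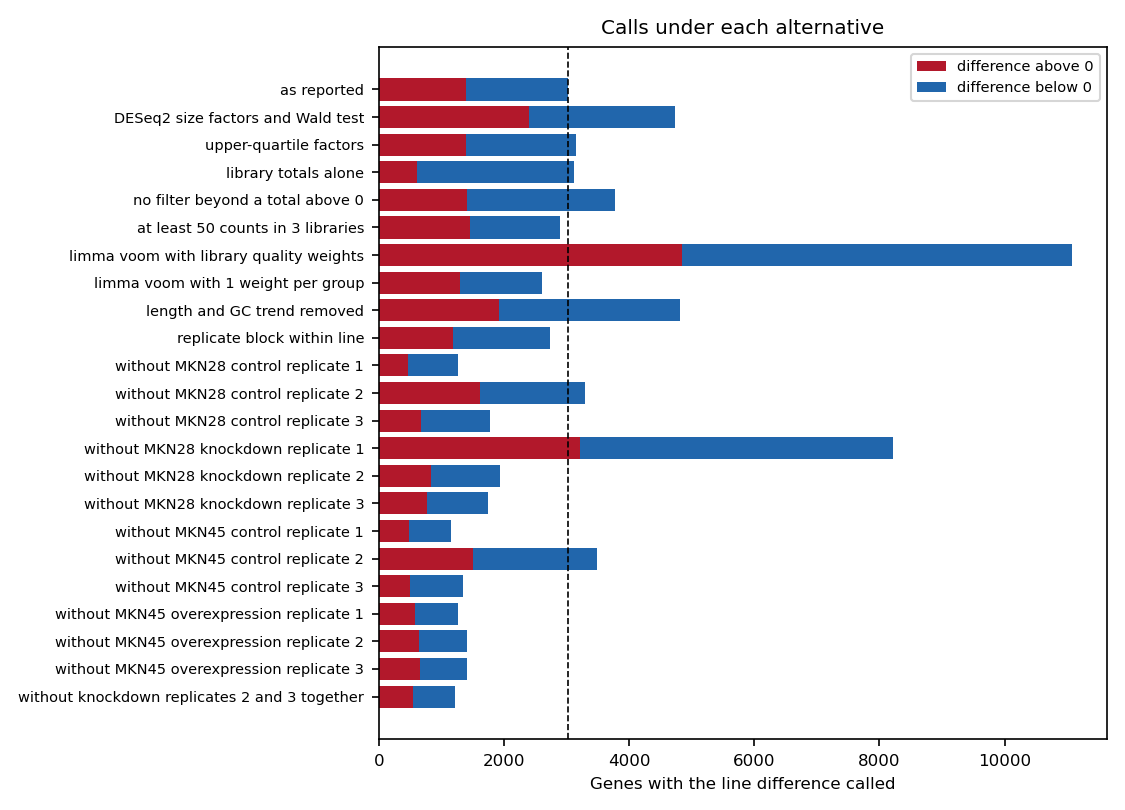
Number of genes with a called line difference above 0 (red) and below 0 (blue) as reported (dashed line, 3017) and under each of 22 alternatives. The total runs from 1163 without MKN45 control replicate 1 to 11082 with limma voom library weights, and the fit by library totals alone has 615 above and 2503 below 0.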

How the data were processed

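Total RNA of 12 libraries in 4 groups of 3 was sequenced, and the authors deposited whole-number counts per gene with no normalization, per the file headers and from the values. HISAT2 and StringTie are named in the submitters' processing notes, without versions. How reads were counted, on which build and annotation and with which strand setting, is not given in the sources used here. All 12 sample columns were used and 0 were left out.

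The members and gene lists were chosen with earlier results of these data known. One model with 4 group terms was fitted to all libraries with edgeR 4.0.16 (TMM factors, filterByExpr with a minimum count of 10 and total of 15, quasi-likelihood F test, limma 3.58.1, R 4.3.3), which left 17266 of 50868 identifiers. Benjamini-Hochberg adjusted p-values over all genes tested were read at 0.05. CPM values were TMM-scaled unless stated. The code was tested on simulated data with known changes. These were placed in MKN45 overexpression alone, with the same spread in all groups. The test thus does not cover the wider spread of knockdown libraries or the many genes changed in MKN28.

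Positions and symbols came from GENCODE 29 (GRCh38), transcript length and GC content were medians over a gene's transcripts, and promoters came from RefSeq (GRCh38.p14). Described genes were ZNF165 and called genes with a difference of at least 1 and a group mean of at least 5 CPM: up to 8 per direction opposed with both changes past the threshold (none found), 5 per direction with the MKN28 change alone, 5 with the MKN45 change alone and no overlap (none found), both with the other line's change under 0.5, 3 with both changes of the same sign, and up to 3 per gene list. A list with no such gene gave its member with the highest level, which need not be called. Further rules were added after the data were seen: opposed genes by lack of overlap, genes larger in MKN45 and past the threshold in MKN45 alone, and list members in a direction with at most 2 calls. The last of these rules set no minimum level. List members named beyond these, and the 5 promoters shown, were chosen after their values were seen. Some genes that met these rules are not reported here.

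Alternatives were DESeq2 1.42.0, upper-quartile factors, library totals, no filter, a minimum of 50 counts in 3 libraries, limma voom with library weights, removal of each library's length and GC trend, a replicate block, omission of each library and of knockdown replicates 2 and 3, and each line fitted alone. Voom with 1 weight per group was added after the data were seen.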

Additional observations from a re-analysis of the deposited data

Results flagged for a closer look

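Each result in this section had an effect that differed between the cell lines by edgeR's quasi-likelihood test of the difference itself at an adjusted p under 0.05, over 3017 genes in all. The values are line differences, the log2 change with higher ZNF165 in MKN45 minus that in MKN28. They are given for ZNF165, at 1.67, and for the other called genes chosen by rule. TMEM92, STC1, PPP2R2C, CHST3, GLS2, PRXL2A, VAV3, TNFSF4 and AGR2 had no count in any knockdown library, and RAB3A had few. PSMB8 and TENM4 were nearly absent from MKN28 controls. The sizes of the differences of all these genes are therefore not well fixed by the counts. Lower limits of the MKN28 change are given above for most of those with no count after knockdown.

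Among genes above control in both lines the differences were 5.38 for CXCL3, 5.15 for GPR3, 4.31 for MUC4, 3.98 for CDKN1A, 3.26 for SCAMP5, 2.74 for BRME1 and 2.34 for ATF7IP2. Among genes below control in both lines they were −9.33 for TMEM92, −7.17 for STC1, −6.08 for RAB3A, −3.72 for CTNND1, −3.25 for CIPC, −3.11 for ARG2, −2.76 for ABAT and −2.56 for ZNF250. For genes with the larger change in MKN45 they were 2.94 for NR4A2, 2.76 for BTG2, 2.59 for NFKBIZ, 2.53 for PLK2, 2.34 for EGR1, 1.97 for HES1 and 1.90 for CCNL1, and −3.02 for NGFR and −2.83 for NUPR1. For genes that changed in MKN28 alone they were 4.99 for C6orf226, 4.72 for S100A2, 4.62 for TENM4 and 4.51 for SUSD4, and −7.10 for PPP2R2C, −6.70 for CHST3, −6.67 for GLS2, −6.41 for PRXL2A and −6.18 for VAV3.

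In genes of translation and respiration the differences were 3.46 for NDUFB7, 2.77 for RPL35, 2.68 for CYC1, 2.55 for COX8A and 2.41 for RPLP1. In immediate early genes, p53 targets and NF-kB genes they were 4.54 for FOSL1, 4.23 for SESN2, 3.41 for MAFF, 3.38 for PHLDA3, 2.80 for TNIP2 and 2.80 for RELB above 0 and −2.68 for BIRC3 and −2.46 for FOS below 0. In chemokines, antigen presentation, checkpoint ligands and interferon-stimulated genes they were 4.997 for PSMB8, 4.54 for IL23A, 4.05 for CXCL8, 2.60 for ISG15 and 1.69 for TAP2 above 0 and −9.89 for TNFSF4, −4.49 for IFITM1, −3.54 for CCL22, −2.92 for BST2, −2.84 for HERC5 and −1.99 for BTN3A1 below 0.

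In receptor, TGF-beta and Wnt genes the differences were 7.13 for TGFBI and 2.07 for EPHA2 above 0 and −3.73 for TNFRSF19, −3.49 for MET, −3.03 for LTBP1, −2.99 for SMAD6, −2.93 for INSR and −2.85 for EGFR below 0. In epithelial, mesenchymal and lineage genes they were 13.42 for CLDN4, 5.67 for MUC13, 3.76 for KRT86, 3.48 for KRT8, 3.39 for SNAI1, 2.72 for SPDEF, 2.70 for TAGLN and 2.41 for KRT7 above 0 and −6.40 for AGR2, −3.35 for HNF4A, −2.54 for CALD1, −2.53 for ITGAV and −1.96 for CDH1 below 0.

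In replication, mitosis, histone and splicing genes the differences were 3.57 for H2BC4, 3.02 for MCM5, 2.61 for U2AF2, 2.35 for UBE2C, 2.34 for SRSF2, 2.32 for H1-2 and 2.19 for CDT1 above 0 and −3.60 for TOP2A, −3.19 for BUB1B, −2.26 for GINS1 and −2.02 for SRSF4 below 0. In genes of histone methylation they were 2.87 for SUV39H1 above 0 and −5.74 for KDM7A, −3.29 for KMT2C and −3.11 for SETDB2 below 0. In the remaining lists they were 4.06 for TEX14, 2.50 for HMOX1, 2.30 for TPI1 and 2.14 for PVT1 above 0 and −4.96 for AKR1C2, −4.40 for HSPA1B, −3.67 for ACRBP, −3.41 for SC5D, −3.31 for MALAT1, −3.26 for HSPH1, −3.25 for SEL1L, −3.24 for EGLN3, −3.19 for P4HA1, −3.11 for ATAD2, −3.01 for AKR1C1 and −2.58 for ENO2 below 0.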

How the results depend on the processing

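The 3017 called line differences became 4730 with DESeq2 (3001 shared), 4820 with the length and GC trend removed (2708 shared), 11082 with limma voom library weights and 1217 without knockdown replicates 2 and 3 together. With 1 library left out they ran from 1163 (without MKN45 control replicate 1) to 8209 (without knockdown replicate 1), and 10 of the 12 omissions moved the count by over 1.5 times. The genes above 0 numbered 2398 with DESeq2, 615 by library totals, 4840 with voom library weights, 542 without knockdown replicates 2 and 3, and 472 to 3215 with 1 library left out. Those below 0 numbered 2503 by library totals, 6242 with voom library weights, 2895 with the trend removed, 675 without knockdown replicates 2 and 3, and 680 to 4994 with 1 library left out. The MKN28 response fell to 5015 genes without knockdown replicates 2 and 3. The 3 genes of the MKN45 response became 141 with DESeq2, 0 by library totals, 152 with no filter, 2581 with voom library weights, 1103 with 1 weight per group, 53 with the trend removed, 1 with the replicate block, 15 without knockdown replicates 2 and 3, 179 in MKN45 alone, and 0 to 14 with 1 library left out.

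The ZNF165 line difference of 1.67 was 0.98 by library totals (adjusted p = 0.262), 1.56 with no filter (0.127), 1.74 with voom and 1 weight per group (0.0664), 1.72 with the replicate block (0.0639), and 1.46 to 1.92 with 1 library left out. The MKN28 response of ZNF165 was 1.40 with 1 weight per group (0.0596), 0.66 with the trend removed (0.0911) and 1.12 without knockdown replicates 2 and 3 (0.0872). Its MKN45 response was 3.19 by library totals (0.187), 3.14 with the block (0.0765) and 2.88 to 3.402 with 1 library left out, with the call lost for 8 of the 12 libraries (adjusted p up to 0.175). Uncalled differences changed sign. That of TRIM27 (0.04) was −0.73 by library totals, −0.10 with no filter, −0.47 without knockdown replicates 2 and 3, and −0.23 to 0.24 with 1 library left out. That of MT-CO1 (−0.12) was 0.015 with DESeq2, 0.26 with the trend removed, and −0.51 to 0.19 with 1 library left out. No called gene among those described by rule changed direction under the settings run. The cause of these changes was not tested, except that a fit with fewer libraries has fewer degrees of freedom.

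With the replicate number as a block within each line 2743 genes were called. Deviations from the group means correlated between same-numbered libraries at 0.25, 0.38 and −0.31 in MKN28 and at −0.06, −0.05 and 0.06 in MKN45. Not every library correlated best with its own number. Whether same-numbered libraries were handled together cannot be settled this way, as deviations within a group of 3 sum to 0 and depend on one another. Depth limits genes with few counts: 20 called genes had at most 3 counts in each MKN45 library.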
